A study of Mus musculus with 4 samples.

Results

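The V (variable) genes of the T cell receptor, and the CTCF-bound sites that lie among them in heart, are described here. The genes were taken by symbol, as those starting with Trav, Trbv, Trdv or Trgv and a digit that the annotation types as T cell receptor V genes. This gave 136 of 55413 annotated genes, of which 108 are Trav, 22 Trbv, 5 Trdv and 1 Trgv. They lie in 3 loci, and each locus was examined from its first to its last V gene with 100 kb added on either side. These windows held 46 of the 54309 summits in the authors' conservative peak list, a summit being the base of highest signal in a peak. CTCF ChIP-seq, which immunoprecipitates chromatin with an antibody to CTCF and sequences the DNA, was carried out on frozen heart tissue of adult female B6CASTF1/J mice, 2 months of age. B6CASTF1/J is a first-generation cross of C57BL/6J and CAST/EiJ, and the lists do not separate the parental alleles. Pool G (biological replicate 2) and pool H (biological replicate 1) each joined 2 heart biosamples and were sequenced as 2 technical libraries, giving 4 libraries in all. No genotype or treatment was varied. The 8 deposited lists hold peak positions and scores but no read totals, so the depth of the libraries is unknown, and they hold no expression, so the heart label could not be checked against marker genes. Whole tissue holds several cell types, and the share of bound cells and the strength of binding per cell cannot be told apart in a peak list.

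A T cell receptor gene is assembled in thymocytes by V(D)J recombination, which joins 1 of many V segments to a diversity and a joining segment, or to a joining segment alone. CTCF binds DNA through zinc fingers that read an asymmetric core sequence. Together with the cohesin ring it anchors chromatin loops, typically between cores that point toward each other, and in developing lymphocytes such loops bring distant V genes near the joining segments. Heart muscle does not recombine these loci, so the data show where CTCF sits on them in a tissue that is not of the T lineage.

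The sites below carry the arrangement found at the loci. Each is shown 5′ to 3′ on the strand of its core, and the capitals mark the 12-base core, CCANNAGNNGGC with limits on the N positions, allowing 1 mismatch. Coordinates are those of the core on mm10. The first 6 lie upstream of V genes, the next 3 lie on either side of the delta diversity, joining and constant segments, and the next 2 close the alpha locus at its far end. The last 3 are the strongest summit of the beta locus, the summit before the first beta diversity segment and the summit beside Trbv31.
Trav17, chr14:53806402-53806413, plus strand: cacctttgaCCACAAGGGGGCactgttgca
Trav3-4, chr14:53776875-53776886, plus strand: agaagctgtCCACAAGGGGGCagagcatct
Trav6n-6, chr14:53132569-53132580, plus strand: agctcctgtCCACCAGGGGGCgcagatgcc
Trav3-3, chr14:53665839-53665850, plus strand: agaagctgtCCACTAGGGGGCagagcatca
Trav10, chr14:53505571-53505582, plus strand: gagaagtggCCACAAGATGGCagtagtgca
Trdv1, chr14:53881442-53881453, plus strand: tcagtctagCCAAAAGGTGGCagtgtttta
Before Trdv4, far site, chr14:54059964-54059975, plus strand: gtcaggggaCCACTAGATGGCagcagatgg
Before Trdv4, near site, chr14:54064713-54064724, plus strand: tgcttttgaACACTAGGGGGCaatgctgga
Between Trdv5 and Traj61, chr14:54153034-54153045, minus strand: ctagttagaGCAGCAGGGGGCgctgtgagg
After Trac, chr14:54228085-54228096, plus strand: ttaaggtagCCACACGGGGGCagcagtact
In Dad1, chr14:54239239-54239250, plus strand: aaggtgcatCCACTAGATGGCggcagagtg
Near Trbv14, chr6:41137173-41137184, plus strand: tgtcactggCCACTAGAGGGCactgtggat
Before Trbd1, chr6:41530179-41530190, minus strand: cacaaatggACAGCAGGGGGCaggctttcc
Beside Trbv31, chr6:41556574-41556585, minus strand: tcttttcttCCACAAGAGGGCacaagaagt

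Summits of the list were spread through the alpha and beta loci, with fewer per Mb than over the genome. The Tra/Trd locus, in which the delta genes are embedded among the alpha genes, runs from Trav1 to Trdv5 (chr14:52427928-54149294) over 1.72 Mb and holds 113 V genes. Its window had 29 summits, or 15.1 per Mb, with 23 of them between the first and last V gene, or 13.4 per Mb. Stretches of 231 and 213 kb without a summit held 22 and 21 of its V genes. Around the 5′ ends of these genes, a median of 0.0% of 36-base words are found once in the genome. In such sequence missing summits and missing reads cannot be told apart, which limits the comparison of densities. The Trb locus runs from Trbv1 to Trbv31 (chr6:40891229-41558452) over 667 kb and holds 22 V genes. Its window had 15 summits, or 17.3 per Mb, with 13 between the first and last V gene, or 19.5 per Mb. Over chromosomes 1 to 19 and X the list held 21.2 summits per Mb, so the beta V genes lay in a stretch near that density. The only gene that the rule found at the gamma locus, Trgv2 (chr13:19336573-19337167), had 2 summits in its window, both beyond the gene.

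Signal at the loci was spread over the range of the list. The signal is the score that the authors' peak caller gave each peak, without a stated unit, and it ranks peaks within a list. Of the 46 summits, 23 were at or above the list's median of 286, which is 50% (95% exact binomial interval 34.9 to 65.1). Signals ran from 75.5 to 790 in the Tra/Trd window, with a median of 268. They ran from 103 to 686 in the Trb window, with a median of 282. The Trg summits had 722 and 786. The strongest Tra/Trd summit, in Dad1, ranked 1420th of the 54309 and the weakest, between Trdv4 and the delta diversity segments, ranked 52007th, so the alpha locus alone spans nearly the whole range of the list. These intervals cover counting error over summits or genes only, and neighbouring V genes are copies of one another and are not replicates.

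**Figure D1:**
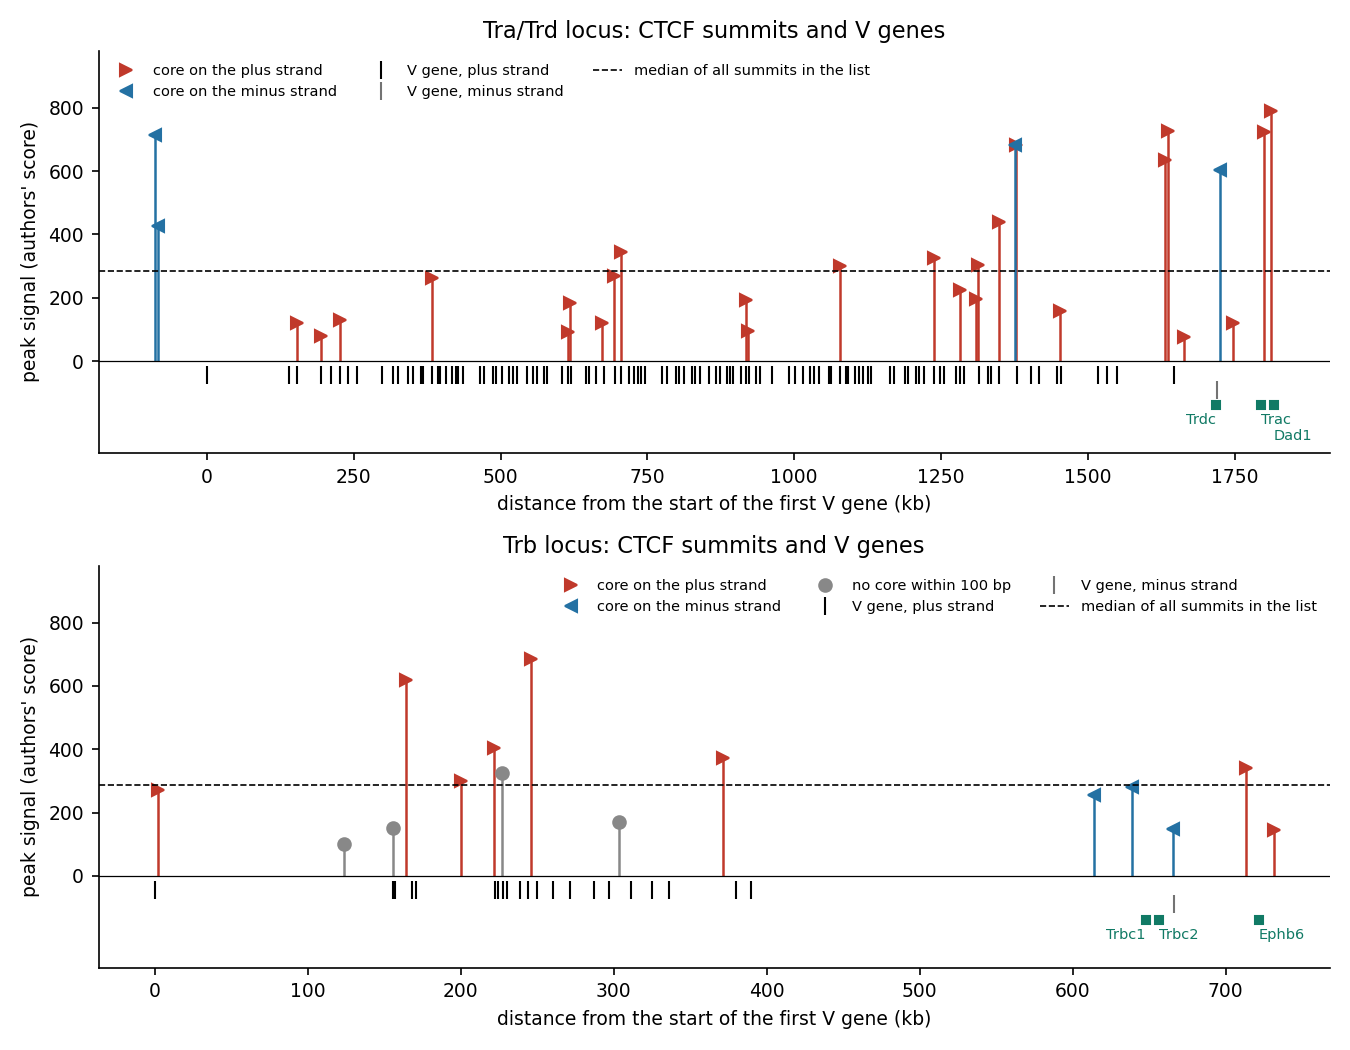
CTCF summits in the Tra/Trd window (upper panel) and the Trb window (lower panel), plotted as the authors' signal against distance from the start of the first V gene in kb. Right-pointing red triangles have the core on the plus strand, left-pointing blue triangles on the minus strand, and grey circles no core within 100 bp; black ticks are V genes and green squares are the labelled genes. The tall summits of Tra/Trd, up to 790, stand at the ends of the array and at Trav17, while the summits within the V array up to Trav3-4 stay between 79.9 and 440. In 1 kb around the latter, 36.1 to 100% of 36-base words are found once in the genome, against 100% around both summits at Trav17. Whether the signal follows this share was not tested.

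Few V genes had a CTCF summit at their annotated 5′ end. Within 1 kb of it, 14 of 113 Trav and Trdv genes had one, which is 12.4% (6.94 to 19.9), and 3 of 22 Trbv genes, which is 13.6% (2.91 to 34.9). Trgv2 had none. Over all 136 genes the count was 17, or 12.5% (7.45 to 19.3). The background was 15.4% of all annotated genes and 27.1% of protein-coding genes, so the share at V genes lay near that of all genes and below that of protein-coding genes. V pseudogenes had a summit at 3 of 34, immunoglobulin V genes at 15 of 218 (6.88%, 3.90 to 11.1), and olfactory and vomeronasal receptor genes, which also lie in large tandem clusters, at 7 of 1464 (0.478%, 0.192 to 0.983). The 15 were all among the 113 heavy-chain (Ighv) genes of chromosome 12, and none of 100 Igkv and 3 Iglv light-chain genes had one. The intervals of the T cell receptor and immunoglobulin V genes overlap.

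**Figure D2:**
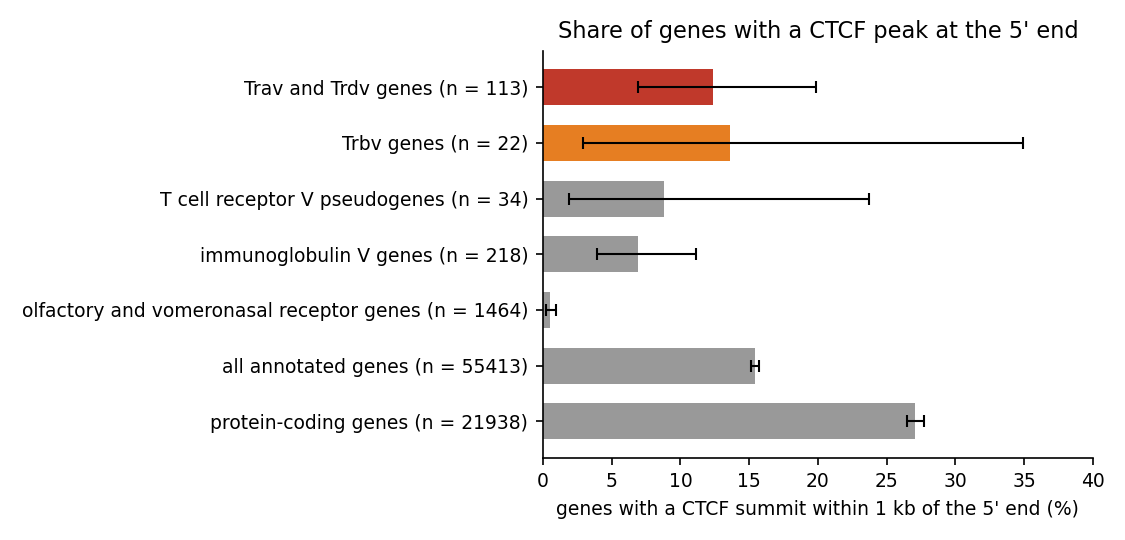
Share of genes with a conservative CTCF summit within 1 kb of the annotated 5′ end, in percent, by gene group, with the number of genes in brackets. Bars are shares and lines are 95% exact binomial intervals over genes; the Trav and Trdv share of 12.4% lies under the 27.1% of protein-coding genes.

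At the alpha and delta V genes that did have a summit, it stood in the same narrow place. All 14 summits lay upstream of the annotated 5′ end, by 84 to 288 bp with a median of 158 bp. Around protein-coding 5′ ends the summits lay on both sides, with a median of 15 bp upstream, and 34.2% of them were upstream by at most 300 bp. The 3 Trbv summits stood farther out, at 488 bp before Trbv12-1, 499 bp before Trbv12-2 and 582 bp before Trbv2. Heavy-chain V genes of the immunoglobulins, which are assembled by the same recombination in B cells, had theirs on the other side. The 16 summits at their 5′ ends lay 366 to 637 bp into the gene's direction of transcription, and the median Ighv gene is 443 bp long, with its recombination signal at the 3′ end. The annotated 5′ end of a V gene may not be a transcription start.

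**Figure D3:**
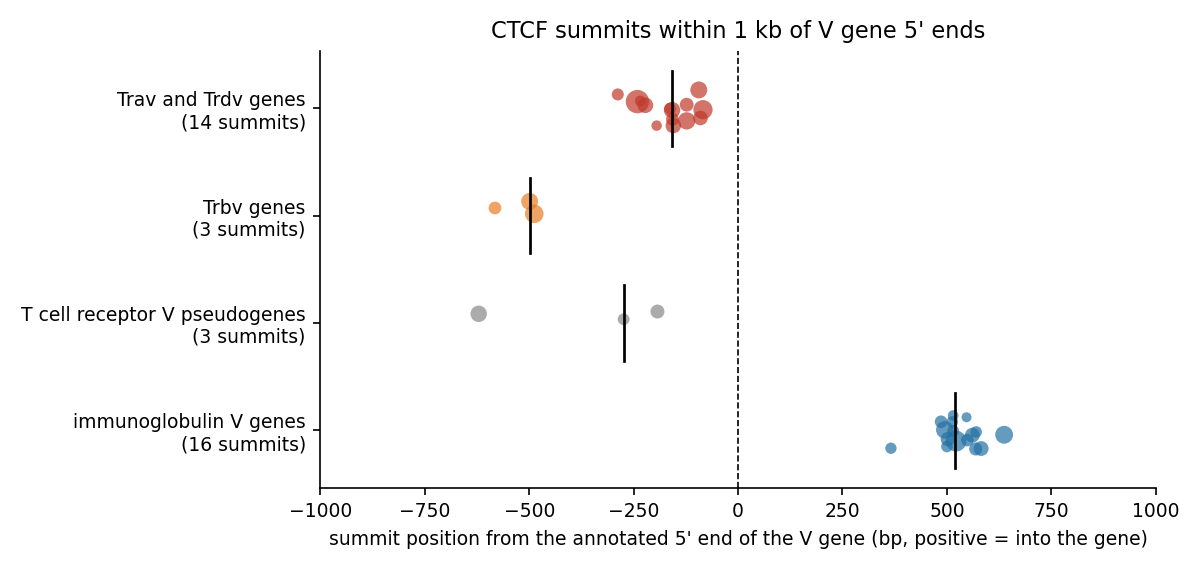
Position of CTCF summits relative to the annotated 5′ end of the V gene, in bp along the gene's strand, with upstream to the left of the dashed line. Each circle is a summit, its area grows with the authors' signal, its vertical place in a row is arbitrary, and black bars are medians. Trav and Trdv summits sit 84 to 288 bp upstream, while the immunoglobulin V summits, all at heavy-chain genes, sit 366 to 637 bp downstream.

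Trav17, the V gene with the strongest summit at its 5′ end, had a signal of 681, and the pools gave it 359 in pool G and 318 in pool H. Its core is exact; it stands near the start of the promoter printed below. A second summit of like strength, 683, lay 2.22 kb before the gene, with 359 in pool G and 324 in pool H. Its core is on the opposite strand, so that the paired cores, 1.98 kb apart, point away from each other. Trav3-4 followed among the V genes with 440 (222 in pool G and 216 in pool H). Trav6n-6 had 344 (215 and 134), Trav3-3 had 325 (179 and 146), Trav10 had 299 (163 and 135) and Trav10n had 268 (148 and 119), each given for pool G and then pool H. In all 6 genes the pool G score was above the pool H score, as it was for most peaks of the lists.

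The promoters of the leading pair of genes are shown because both summits fall in them. They run from 250 bases before to 50 bases after the annotated 5′ end on the plus strand of mm10, at chr14:53806389-53806688 for Trav17 and chr14:53776706-53777005 for Trav3-4, and capitals mark the core.
Trav17 promoter: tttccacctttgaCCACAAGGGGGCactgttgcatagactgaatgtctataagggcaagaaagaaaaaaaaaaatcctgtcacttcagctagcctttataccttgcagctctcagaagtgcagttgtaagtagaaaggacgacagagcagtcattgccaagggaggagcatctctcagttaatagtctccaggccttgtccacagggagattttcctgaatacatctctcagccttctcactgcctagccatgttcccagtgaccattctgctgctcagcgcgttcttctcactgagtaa
Trav3-4 promoter: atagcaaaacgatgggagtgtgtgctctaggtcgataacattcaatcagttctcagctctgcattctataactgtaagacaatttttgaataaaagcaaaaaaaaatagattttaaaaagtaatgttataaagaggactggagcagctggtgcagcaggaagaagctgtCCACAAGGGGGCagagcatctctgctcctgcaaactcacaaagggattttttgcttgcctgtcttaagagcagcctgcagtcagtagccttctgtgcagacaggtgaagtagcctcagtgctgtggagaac

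Trdv1 was the only one of the 5 delta V genes with a summit at its 5′ end. It had a signal of 157 (87.8 in pool G and 68.2 in pool H), 157 bp upstream. Trdv2-1 lay 64.6 kb, Trdv2-2 79.5 kb, Trdv4 10.2 kb and Trdv5 3.75 kb from the nearest summit, and none of those 4 has the core in the 500 bp before it. Trdv5 differs from the others in lying on the minus strand next to the delta constant gene Trdc.

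Among the beta V genes, Trbv12-1 had the strongest summit at a 5′ end, with a signal of 405 (224 in pool G and 180 in pool H). Trbv12-2 had 325 (174 and 150) and Trbv2 had 153 (87.5 and 64.2). Only the Trbv12-1 summit had a core within 100 bp, with 1 mismatch. The 2 strongest beta summits were not at 5′ ends. The strongest, 686, lay 1.56 kb past the 3′ end of Trbv14 and the next, 620, lay 3.64 kb before Trbv4. Trbv17 and Trbv26 lay farthest from any summit, at 25.9 and 32.8 kb, against 110 and 112 kb for Trav9d-3 and Trav12d-3 in the alpha locus. Around the 5′ ends of Trav9d-3 and Trav12d-3, 0.0% of 36-base words are found once in the genome, against 100% at Trbv17 and Trbv26. At those alpha genes a missing peak and missing reads cannot be told apart.

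The core was found within 100 bp of 42 of the 46 locus summits, 91.3% (79.2 to 97.6). Over all summits of the list the share was 66.0%. The core was exact at 21 of the 46, against 33.0% of all summits. Every one of the 29 Tra/Trd summits and both Trg summits had it, and the 4 summits without it were all in the V array of the beta locus.

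The cores bound at V genes pointed along the genes. At the 17 V genes with a summit at the 5′ end, 15 summits had a core and all 15 cores were on the strand of the gene (100%, 78.2 to 100), so they point into the gene and on toward the diversity and joining segments. Around protein-coding 5′ ends with a core, 57.1% were on the strand of the gene. At the heavy-chain V genes of the immunoglobulins the count was also 15 of 15 summits with a core. The V genes of a family descend from shared ancestors, so these cores are not independent of each other.

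Along the Tra/Trd locus most cores had that direction, but most of the summits are those at V genes. Up to the last V gene on the plus strand there were 22 summits, and 21 of them had a plus-strand core (95.5%, 77.2 to 99.9). These include the 14 summits at 5′ ends counted above, 2 at V pseudogenes and 3 upstream of the Trav16 copies. The rest are a pair of plus-strand sites before Trdv4 and the exception, the summit 2.22 kb before Trav17. Before that exception, 17 plus-strand cores followed one another over 1.2 Mb without a reversal, from the one at Trav3-1 to the one at Trav3-4. All of these lie at V genes, V pseudogenes or the Trav16 copies, so they say little about sites away from V genes. Up to the last plus-strand V gene of the Trb locus, 6 of 10 summits had a core and all 6 were on the plus strand. Neighbouring cores had the same strand in 23 of 28 pairs of the Tra/Trd window and 8 of 10 of the Trb window, against 51.9% of pairs over the genome.

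The direction turned at the ends of the arrays. Before Trav1, the nearest summits lay 84.1 and 89.1 kb away, with signals of 427 and 714 and minus-strand cores. The nearer is 3.70 kb from Olfr1513, an olfactory receptor gene. Between them and the first summit at a V gene there was none over 237 kb, a gap that holds Trav1, Trav2 and 7 olfactory receptor genes.

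At the far end, a pair of strong plus-strand sites stood before the last plus-strand V gene, Trdv4. The signals were 633 (335 in pool G and 296 in pool H) at 14.9 kb and 725 (394 and 339) at 10.2 kb upstream of that gene, 4.75 kb apart. A minus-strand site of 604 (331 and 276) followed 3.75 kb beyond Trdv5 and 1.96 kb before Traj61, the first of the alpha joining segments. The cores of the pair and of that site point toward each other across 93.1 and 88.3 kb, and the diversity, joining and constant segments of the delta gene lie in between. As background, CTCF elements between the V genes and the delta diversity segments, and near the start of the alpha joining segments, have been described in thymocytes. The sites seen in heart were not matched to those by name. A further plus-strand summit between them was weak, at 75.5 (42.7 and 31.4).

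From the alpha joining array onward the cores were on the plus strand again. A summit of 723 lay 3.89 kb after Trac, the constant region gene of the alpha chain, and one of 790 lay in Dad1, a subunit of the enzyme complex that attaches sugar chains to proteins and is expressed in most cells. Within the alpha joining array 1 summit of 119 with a plus-strand core was found, 85 bp from Traj42 and within 1 kb of Traj41 and Traj43. These 3 were the only ones of 62 joining genes in the window with a summit within 1 kb, and the delta diversity genes had none.

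In the Trb locus the turn fell after a gap. The last plus-strand core of the array, with a signal of 372 (196 in pool G and 180 in pool H), lay 8.39 kb before Trbv29. The next summit, with a minus-strand core and a signal of 256 (152 and 103), came 243 kb later. Between them lie Trbv29, Trbv30 and 5 genes taken as trypsinogens by a symbol starting with Prss or Try. Trypsinogens are digestive protease precursors of the pancreas. None of the 7 genes so taken in the window had a summit within 1 kb, and genes with other symbols were not counted among them. A second minus-strand core, with a signal of 282 (149 and 133), stood 3.0 kb before Trbd1, the first diversity segment. The last of them, of 149 (82.7 and 62.9), stood 1.10 kb from Trbv31, the V gene that lies in reverse beyond both constant genes. No summit lay within 1 kb of a beta constant, diversity or joining gene.

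Outside the beta V genes, the nearest summit lay 46.0 kb after Trbv31, at 0.992 kb from the receptor kinase gene Ephb6, with a signal of 341 and a plus-strand core. On the other side no summit was found for 202 kb before Trbv1, up to one of 563 with a minus-strand core in Mgam, the gene of the digestive enzyme maltase-glucoamylase. A summit of 271 lay 1.84 kb from Trbv1 on the side of the array. From Mgam to Ephb6 the cores therefore ran minus, plus through the V array, minus around the diversity segments, and plus again.

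Trgv2 had its nearest summits 27.5 and 28.6 kb beyond it, with signals of 722 (371 in pool G and 351 in pool H) and 786 (408 and 370). Both fall in Stard3nl, which codes for a membrane protein of late endosomes, and both have plus-strand cores with 1 mismatch. In the other direction the nearest summit was 159 kb away, at 249, without a core and 26.9 kb from Amph, the gene of the endocytic protein amphiphysin. The 6 gamma V genes that carry symbols starting with Tcrg-V are not taken by the rule. They span 162 kb with no summit between the first and the last, and the last-named summit lies within 1 kb of Tcrg-V7.

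The core is far more common before alpha and delta V genes than CTCF peaks are. In the 500 bp upstream of the 5′ end, on either strand, 64 of 113 Trav and Trdv genes had a core with at most 1 mismatch and 34 had an exact one, all on the strand of the gene. The 64 stood 34 to 357 bp before the gene with a median of 149 bp, the same place as the summits. Among protein-coding genes 13% had a core in the same stretch and 1.76% an exact one. In the beta locus 2 of 22 genes had one. A conservative summit was found at 14 of the 64 genes with a core (21.9%, 12.5 to 34.0) and at none of the 49 without one. With an exact core it was 11 of 34 (32.4%, 17.4 to 50.5), against 70.0% (65.2 to 74.6) of protein-coding genes with an exact core.

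Whether a V gene with a core had a peak moved with how much of its sequence is unique. The alpha array of the C57BL/6 genome holds repeated blocks, and copies of a V gene carry the letter d or n in the symbol. The share of 36-base words found once in the genome was computed for the 1 kb around each 5′ end, as a measure of where a short read can be placed; the genome is that of C57BL/6J, and CAST/EiJ sequence was not analysed here. It ran from 34.3 to 100% at the 14 genes with a peak, with a median of 61.3%. At the 99 without a peak the median was 16.7%, and 29 of them had no unique word. Of the genes with an exact core, the 11 with a peak had a median of 54.4% and the 23 without one a median of 2.07%. In the beta locus every V gene had at least 94.4%. Shares of 100-base words were higher at the Trav and Trdv genes. Their median was 95.7% at the 14 genes with a peak and 48.9% at the 99 without, of which 25 had no unique word. Among genes with an exact core, the median was 95.3% with a peak. Without a peak it was 8.44%, with a range of 0.0 to 100%. No source used here gives the read length or how reads with several placements were treated, so at these genes a missing peak and missing reads cannot be told apart.

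**Figure D4:**
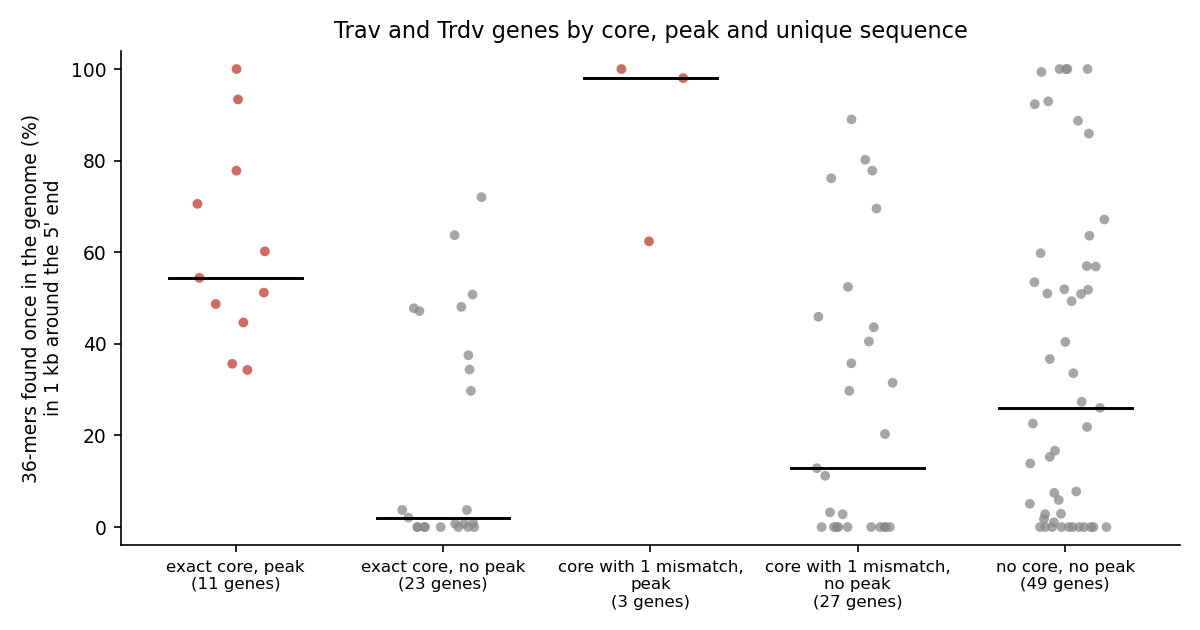
Percent of 36-base words found once in the genome, in 1 kb around the annotated 5′ end, for the 113 Trav and Trdv genes grouped by core and peak. Each point is a gene, red with and grey without a conservative summit, and bars are medians; genes with a peak reach down to 34.3%, while the 23 exact-core genes without a peak have a median of 2.07%.

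Copies of the same V gene differed in this way; the sets named here were chosen after their values were seen. Trav6n-6 had a peak of 344 with 60.2% unique words, whereas Trav6d-6 (core chr14:52821791-52821802) and Trav6-6 (core chr14:53516798-53516809) had no peak and 0.0% unique words. All 3 carry the same 30 bases printed above for Trav6n-6, and the 250 bp to either side of the core were 100% identical between Trav6d-6 and Trav6-6 and 96.9% identical to Trav6n-6. Trav3-3 had a peak of 325 with 51.2% unique words. Its copies Trav3d-3 and Trav3n-3 share the 30 bases printed for Trav3-3, had 2.07 and 3.73% unique words, and had no peak. Trav6-7-dv9 had a peak of 223 with 62.4% unique words, and its copies Trav6d-7 and Trav6n-7 had none of either. Their sites differ in a flanking base and not in the core.
Trav6-7-dv9, chr14:53709818-53709829, plus strand: actttctggTCACTAGAGGGCgcagcatcc
Trav6d-7, chr14:53007507-53007518, plus strand: actctctggTCACTAGAGGGCgcagcatcc

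Peaks were called at all copies in 2 of the 40 sets of d, n and plain copies, pseudogenes included, at some copies in 4 sets and at none in 34. Not all of the 34 carry the core. In every Trav4, Trav13, Trav14 and Trav15 set, for example, no copy has a core in the 500 bp upstream. The Trav10 copies had 263 at Trav10d, 268 at Trav10n and 299 at Trav10. The Trav8-2 copies had 93.5 at Trav8d-2, 193 at Trav8n-2 and 197 at the pseudogene Trav8-2, so that a copy annotated as a pseudogene had a peak as well. In these sets the unique share of the V genes was between 34.3 and 54.4%. The 3 Trav16 copies had a summit farther out, 1748 bp before Trav16d-dv11 (184), 1722 bp before Trav16n (95.7) and 1651 bp before Trav16 (302), each with a core of 1 mismatch on the gene's strand.

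An exact core amid partly unique sequence did not always come with a peak. All 23 exact-core genes without one had under 80% unique 36-base words, while both exact-core genes at or above that level had a peak. Of the 23, 8 had at least the 34.3% of unique words found at the lowest gene with a peak. The Trav7 family, chosen after its values were seen, has 13 genes, and 11 of them have an exact core. Trav7-1 had a peak of 129 and 93.4% unique words. None of the others had a peak or a candidate below the threshold, although Trav7n-4 had 50.8%, Trav7-3 had 48.1%, Trav7d-3 had 47.8% and Trav7-5 had 47.2%. Their exact cores hold the same letters as Trav7-1 or as the bound Trav10, as in the example below. All 9 genes of the Trav12 family have an exact core and no peak. Their d and n copies had 0.0% unique words. The plain copies had 63.7% at Trav12-1, 37.5% at Trav12-2 and 72.0% at Trav12-3. These plain copies had candidates of 32.0, 24.4 and 57.7, in the same order, in the ranked list of both pools, under the threshold.
Trav7n-4, chr14:53091079-53091090, plus strand: atcatgagcCCACAAGGTGGCagtgcttta
Trav7-1, chr14:52654538-52654549, plus strand: atcctgagaCCACAAGGTGGCagtgtttta

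The pools gave the locus summits alike. All 46 were found within 100 bp in the ranked list of each pool, which holds peaks of any strength. The thresholded list of pool G held 45 and that of pool H 41. The ones missing from either were weak, with conservative signals of 75.5 to 103, and lay at Trav5-1, Trav8d-2, Trav16n, between Trdv4 and the delta diversity segments, and between Trbv1 and Trbv2. The ratio of the pool G to the pool H signal had a median of 1.19 at the locus summits, with a range of 0.937 to 1.81, against a median of 1.23 over the list. The conservative list was made from both pools, so its summits were selected for presence in each.

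**Figure D5:**
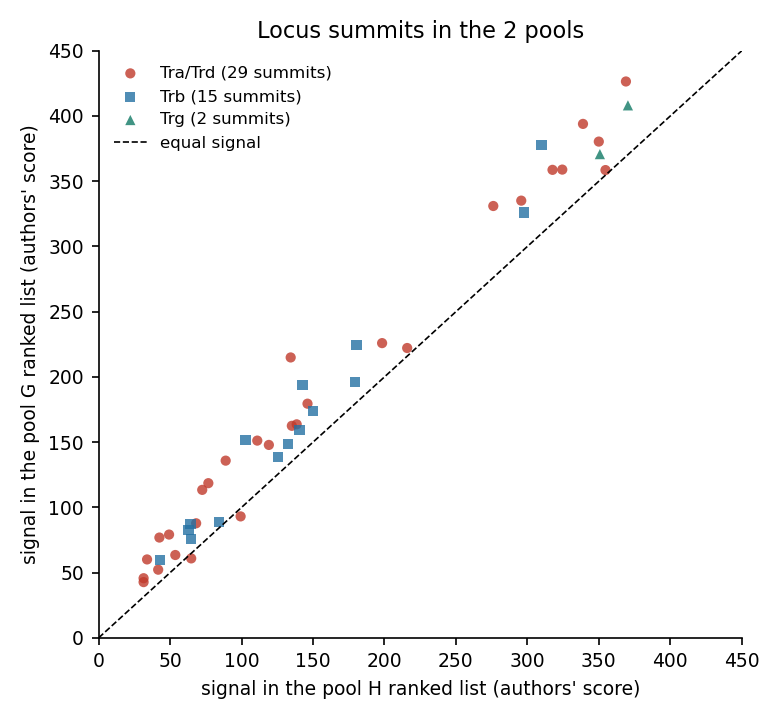
Signal of the 46 locus summits in the ranked list of pool G (vertical axis) against that of pool H (horizontal axis), both in the authors' score. Each point is a summit, shaped by locus, and the dashed line marks equal signal; most points lie above it, with ratios of 0.937 to 1.81.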

How the data were processed

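CTCF peaks of 2 pools of mouse heart were analysed from 7 of the 8 deposited lists, on mm10 per the labels; a second ranked list of both pools was not used. Which pool made which list comes from the deposited readme texts. The authors deposited the signal as a score without a stated unit, and it may grow with depth, which is unknown here. A second deposited score is the scaled irreproducible discovery rate (IDR), at least 540 in the thresholded lists, which stands for 0.05. The ranked lists also hold its −log10, as deposited by the authors. No source used here gives the aligner, the peak caller or read filters. The conservative list, made from both pools, was the main list.

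Genes came from GENCODE M21 and sequence from the RefSeq copy of GRCm38.p6; the promoter table used here held no V gene. The CTCF core (12 bases, at most 1 mismatch, both strands, 100 bp around a summit) and unique words of 36 and 100 bases were scanned with numba 0.67.0, numpy 2.4.6 and pandas 2.3.3 under Python 3.11.15, with biopython 1.88 for alignments and scipy 1.17.1 for intervals. The scans were tested on simulated data. Intervals are exact binomial, and no test was run, since both pools are joined in each summit. Named genes were all Trdv and Trgv genes, the 6 Trav and Trbv genes with the strongest summit, the locus ends, the 2 V genes farthest from a summit, border summits, and the 5 strongest summits per locus; other genes named were chosen after their values were seen. The members and lists were chosen with earlier results of these data known.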

Additional observations from a re-analysis of the deposited data

How the results depend on the processing

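Each result was recomputed with the list of 1 pool alone and with the second list of both pools. Gene counts, window counts, borders and signal were also recomputed at a stricter IDR, gene and window counts with other distances, and the core share and strand with other core or site settings. Of 73 alternatives, 64 kept a count within 1.5 times, a share within its interval or a border within 100 bp, and 9 did not. Requiring the peak interval to overlap the gene left 7 Trav and Trdv genes and 0 Trbv genes, as the summits lie upstream, and a distance of 5 kb raised the Trbv count to 11. The core without mismatch was at 45.7% of summits. Cores on the strand of the nearest V gene were 76.2% over all windows, and 100% within 1 kb of a V gene. The first summit after Trgv2 lay 25.4 kb away in the second list, and 25.4 to 27.5 kb in the list of 1 pool alone; the window held 0 summits without its flanks and 3 to 4 with 1 pool. A distance of 1 kb from the gene body was chosen after seeing the data and gave the same counts, 14 and 3. No paired analysis was possible because no result comes from a test. Depth is unknown, and at alpha V genes with few unique words a missing peak and missing reads cannot be told apart.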

Other observations

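Below the threshold, the ranked list of both pools held 48 further candidate peaks in the Tra/Trd window, 16 in the Trb window and 6 in the Trg window. Of these, 19 in Tra/Trd and 5 in Trb lay within 1 kb of a V gene. The candidate with the highest signal in Tra/Trd lay 231 bp from Trav9-1 at 75.5, close to the weakest called summit of the locus. In Trb it lay 437 bp from Trbv29 at 93.7. The copies of Trav9-1 share its 30-base site, and the peak was called at the pseudogene Trav9n-1 alone, at 120. These genes were chosen after their values were seen.
ctccactggCCGCCAGAGGGCgacattgca is that site, with the core in capitals.

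Of the 9 Trav and Trdv genes with at least 80% unique 36-base words and no core upstream, none had a peak, while both genes with an exact core and 2 of the 4 with a core of 1 mismatch at that level had one. The other 2, Trav6-1 and Trav6-2, had candidates of 65.8 and 31.1 under the threshold.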
